A study of Rattus norvegicus with 24 samples.

Results

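The livers of 12 rats born to dams that had breathed filtered air were compared between the sexes, 6 males (rats 37, 39, 41, 43, 46 and 48) against 6 females (rats 15, 16, 17, 18, 22 and 23). They were taken by their treatment label (Air + Ozone) and make up 12 of the 24 libraries of the study. Their dams breathed filtered air on gestation days 5 and 6, while the other dams breathed 0.8 ppm ozone for 4 hours on each of those mornings. After weaning all 24 offspring, these 12 included, were themselves exposed to ozone weekly, from postnatal week 5 to week 7 (0.4 ppm in week 5 and 0.8 ppm after it), and liver was collected at about day 48. The sex difference described here is thus one between animals that had themselves been exposed to ozone. The labels give no strain, dam or litter for any animal, so littermates may be among the 12, and p-values measure the spread between these animals as if they were independent.

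The rat liver is one of the most sexually dimorphic organs outside the reproductive tract. The pituitary releases growth hormone in widely spaced pulses in adult males and more continuously in females, and hepatocytes read that pattern through the growth hormone receptor and STAT5B. Male-predominant and female-predominant cytochromes P450, steroid-metabolising enzymes and secreted urinary proteins are the textbook targets, and the adult pattern emerges around puberty. The deposited tables give Ensembl rat gene IDs without names, and a match of the 18056 IDs to the rat gene table at hand found 0. Which of the IDs below belong to those families, and whether hepatocyte markers dominate the libraries, was therefore not tested. Of the genes, 2 IDs higher in males and 2 higher in females are given by ID, and the rest are described by size, level and behaviour.

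Library totals ran from 9643329 to 14564662 estimated counts in the 6 males and from 9210458 to 13779144 in the 6 females. A floor of 3 counts corresponds to between 0.206 and 0.326 CPM (counts scaled to a common library size) in these libraries, which covers counting error only. Library names come in 2 forms, taken as 2 library sets with 3 males and 3 females in each. The rat numbers of males and females do not overlap, and neither do their library index numbers (11 to 17 in males, 2 to 4 and 46 to 48 in females). Any effect that goes with rat or index number therefore cannot be told apart from that of sex. The labels do not say whether either number follows an order of handling. The sample numbers that end the library names do overlap (10 to 23 in males and 4 to 21 in females). The 10 most abundant IDs of each library held 25.3% ± 0.42 of the counts in males and 23.3% ± 0.62 in females (SD, n = 6 each; exact two-sided permutation p = 0.00216, the smallest that 6 against 6 allow, adjusted p = 0.00649 over 3 measures). That difference was 2.03 percentage points within set 1 and 2.05 within set 2. Neither library totals (exact permutation p = 0.853) nor the number of IDs at 1 CPM or more (11912 ± 134 in males and 11858 ± 113 in females, exact permutation p = 0.463) differed beyond the spread between animals. These permutations did not account for library set. Mean totals, males minus females, differed by -2.22e+06 in set 1 and 1.85e+06 in set 2, and IDs at 1 CPM or more by 147 and -39.7.

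Sex differences were widespread across the tested genes, and about as many genes were called as were not. Of 12225 genes, 6299 passed the test (51.5%; edgeR quasi-likelihood test with library set as covariate, Benjamini-Hochberg adjusted p under 0.05), and 7010 had an unadjusted p under 0.05. The calls were evenly divided under TMM scaling, with 3130 genes higher in males (25.6% of those tested) and 3169 higher in females (25.9%). With library totals as the only scaling they were 2647 and 3549, so the even division depends on the scaling. Most differences were small: called genes had a median absolute log2 difference of 0.71, and their median standard error was 0.15. In whole liver, fewer cells of a type and less RNA per cell cannot be told apart. At 2-fold or more, 1580 genes were called (12.9% of those tested), 828 of them higher in males and 752 higher in females. All 6 males lay above all 6 females in 1608 genes (13.2% of those tested), and all 6 females lay above all 6 males in 1767 (14.5%). The first principal component of log2 CPM held 57.7% of the variance of the 12 libraries and 7.25% lay on the second. Scores on the first ran from 34.1 to 50.4 in males and from -55.8 to -26.3 in females, with a gap between the sexes wider than the range within either one.

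**Figure D1:**
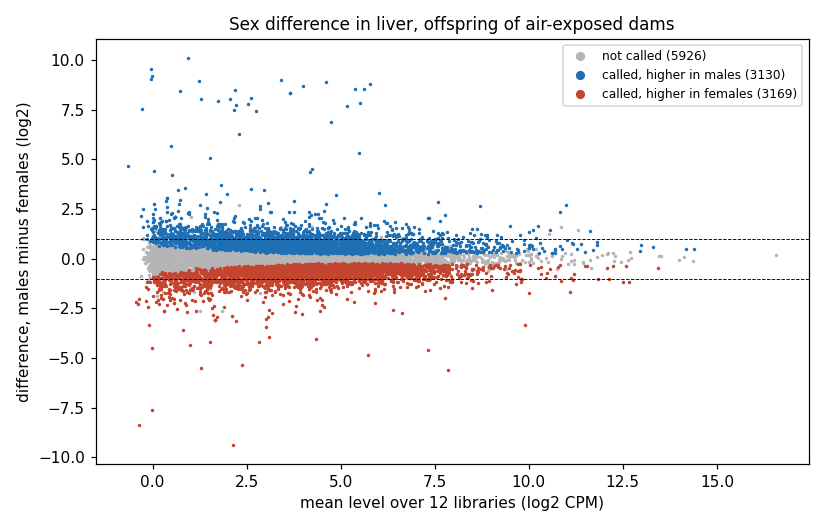
Each point is 1 of 12225 tested genes, with its mean level over the 12 libraries (log2 CPM) on the horizontal axis and the fitted difference, males minus females (log2), on the vertical axis; dashed lines mark 2-fold. The 3130 genes called higher in males and the 3169 called higher in females lie mostly between the dashed lines, with a sparse band of far larger differences, denser on the male side.

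Called genes fell into size classes of very different number. Under 1.5-fold there were 2208 called genes, between 1.5- and 2-fold 2511, between 2- and 4-fold 1389, between 4- and 8-fold 120, and at 8-fold or more 71. The smaller classes were near even between the sexes (716 genes higher in males and 673 in females between 2- and 4-fold). At 8-fold or more, 47 were higher in males and 24 in females. The 47 had a median log2 difference of 7.53 and the 24 one of -4.11. Fractional counts, the form in which reads divided between IDs appear, occurred in 38 of the 47 and 15 of the 24, against 33.1% of all tested genes. With IDs of identical counts kept once, the 47 were 45 distinct measurements and the 24 were 21.

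The difference was spread over all expression levels. In quartile 1 of tested genes by mean level, the lowest, 37.9% were called, and 51.0%, 57.8% and 59.4% in quartiles 2, 3 and 4, where the fitted standard errors were smaller (median 0.27 in quartile 1 and 0.12 in quartile 4). Large differences went the other way, with 19.4% of quartile 1 called at 2-fold or more and 9.36% of quartile 4. Female-higher calls grew from 16.6% of quartile 1 to 33.6% of quartile 4, while male-higher calls were 21.3% and 25.9%. With library totals as the only scaling, quartile 1 was even (18.3% higher in males and 18.6% in females), so the male lead at low levels depends on the scaling. In quartile 4 females led under that scaling too.

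ENSRNOG00000019417 had the largest fitted difference among the genes that qualified for naming. It measured 51.6 CPM in rat 37, 72.1 in rat 39, 106 in rat 41, 1.56 in rat 43, 6.46 in rat 46 and 11.6 in rat 48. Among the females it was at 0 counts in 5 and at 2 counts (0.159 CPM) in rat 17. All males lay above all females, as naming required. The males differed among themselves by 67.5-fold, with rats 37, 39 and 41 high and rats 43, 46 and 48 low. The ratio of summed counts per total, males to females, was 1501 with an exact 95% interval of 415 to 12397, which covers counting error only. The test across all genes gave an adjusted p of 0.000869 (edgeR; 0.000113 to 0.0321 with any 1 library left out). Its fitted log2 difference of 10.1 ± 1.70 (SE) rests on near-zero counts: it was 9.32 without rat 41 and 11.9 without rat 17, and the call was lost within library set 2 alone (3 against 3; 9.08, edgeR adjusted p = 0.0751).

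ENSRNOG00000050117 was the second named gene that was higher in males. Its levels were 319, 581, 485, 123, 73.2 and 253 CPM in rats 37, 39, 41, 43, 46 and 48. In females it was at 1.23, 0.908 and 1.20 CPM in rats 15, 16 and 17 and at 0 counts in rats 18, 22 and 23. The groups were separate, as naming required, and rats 43 and 46 were again the lowest males. The log2 difference was 8.99 ± 0.84 (SE, edgeR adjusted p = 2.34e-05). Its counts were fractional in 11 of the 12 libraries, so reads divided with other IDs may be among them and its level is uncertain. The same holds for the other named IDs: counts were fractional in 9 libraries for ENSRNOG00000051257, in 6 for ENSRNOG00000004692 and in 5 for ENSRNOG00000019417.

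ENSRNOG00000051257 had the largest difference in the other direction. Females measured 52.0, 74.4, 107, 88.9, 70.6 and 58.0 CPM in rats 15, 16, 17, 18, 22 and 23. Males had 0 to 2 counts each, at most 0.208 CPM, under the floor of 3 counts. Among females the highest level was 2.06 times the lowest, a far narrower spread than that of the male-higher IDs among males. The ratio of summed counts per total, females to males, was 753 (exact 95% interval 365 to 1873, counting error only; edgeR adjusted p = 2.38e-11).

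ENSRNOG00000004692 was the most abundant of the 4. It measured 1212, 1645, 2856, 1182, 2334 and 2614 CPM in the females in the same order of rats. Males had 13.5, 6.36, 20.4, 105, 56.7 and 53.3 CPM in rats 37, 39, 41, 43, 46 and 48. Here rats 43, 46 and 48, the lowest males for ENSRNOG00000019417, were the highest males. The log2 difference, males minus females, was -5.60 ± 0.59 (SE, edgeR adjusted p = 3.69e-05). The opposite order of these IDs among the 6 males was noticed after their values were seen and is given as values only.

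**Figure D2:**
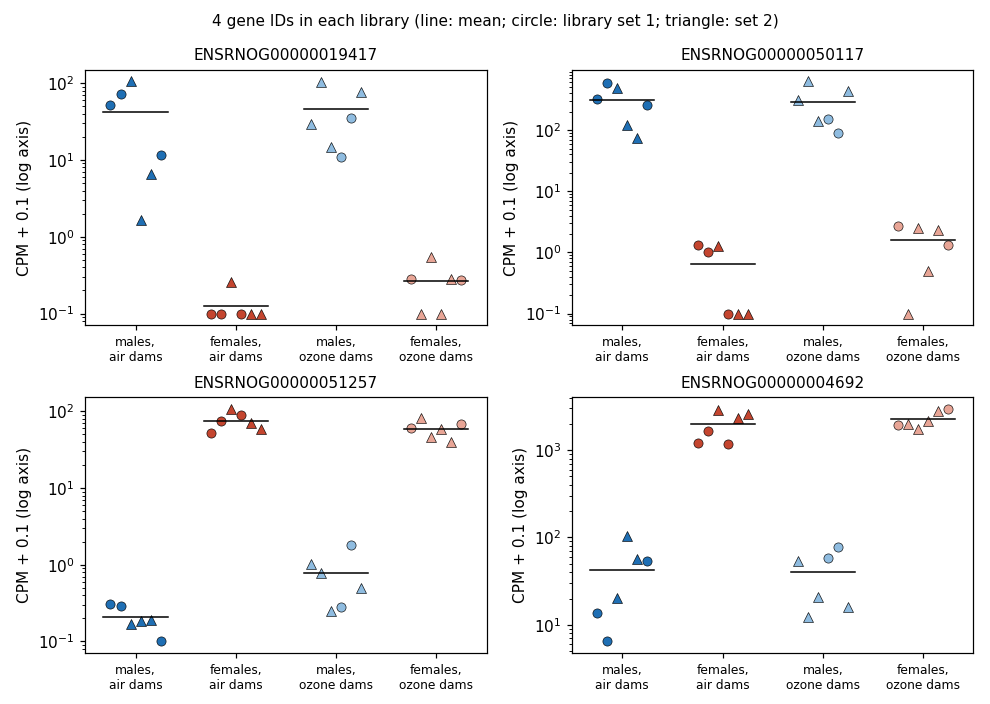
Level of 4 gene IDs in each of the 24 libraries (CPM with 0.1 added, log axis); groups are males and females of air-exposed and of ozone-exposed dams, lines are group means, circles are library set 1 and triangles set 2, with rats in numerical order within a group. The sexes do not overlap for any of the 4 IDs in either dam group, which with air-exposed dams was a condition of naming. ENSRNOG00000019417 runs from 1.56 to 106 CPM among the males of air-exposed dams.

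A few IDs were close to absent in 1 sex. With at least 10 counts in every male and at most 2 in every female there were 8 IDs, of which 3 were at 0 in all 6 females. The reverse held for 3 IDs, of which 1 was at 0 in all 6 males. Fractional counts occurred in 6 of the 8 and 2 of the 3, against 33.1% of all tested genes. These limits were set after the data were seen. The 12 libraries from ozone-exposed dams had no part in that choice. There, all 8 male IDs again separated the sexes without overlap, as did 2 of the 3 female IDs. Across the 8 male IDs the lowest male count was 7 and the highest female count 8, so the limits above did not hold throughout. Across the 2 female IDs the lowest female count was 29 and the highest male count 18. For the remaining female ID, the lowest female had 5 counts and the highest male 85. By the 8 male IDs no library from an ozone-exposed dam went against its labelled sex. Of all genes tested in those libraries 4.42% were called for sex, and the share that separated the sexes there is not given.

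Genes at 2-fold or more also took a visible share of all counts. The 828 male-higher genes held 7.02% ± 0.55 of the counts in males and 2.25% ± 0.23 in females (SD, n = 6 each). The 752 female-higher genes held 8.82% ± 1.04 in females and 3.39% ± 0.31 in males. As the genes were picked by this very contrast, the shares are a description without a test. The female-higher set was the more concentrated, with 55.7% ± 1.04 of its counts in females in its 10 most abundant IDs, against 39.9% ± 1.34 for the male-higher set in males. Rat 48 had the lowest male-higher share of the 6 males (6.09%) and the highest female-higher share (3.69%), and rat 15 stood at the corresponding end among females (2.57% and 7.45%).

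The typical gene had a larger SD among the 6 females than among the 6 males. Over 8643 genes with a mean count of at least 50 in each sex, the median SD of log2 CPM within library sets was 0.20 in males and 0.24 in females, and 34.9% of the genes varied more in males. Genes at 2-fold or more varied more in both sexes. The medians were 0.28 and 0.35 for 415 male-higher genes, and 0.26 and 0.33 for 393 female-higher genes, with males first. Genes that were not called had medians of 0.20 and 0.25. The share of genes more variable in males was 31.8% in the male-higher set and 35.4% in the female-higher set, close to that of all genes. Genes of the same animals are not replicates, and the difference in spread between the sexes was not tested.

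The 2 library sets hold different animals and gave the same direction for nearly all called genes. Set 1 alone called 3500 genes (28.4% of those tested) and set 2 alone 4042 (32.7%), each from 3 against 3 animals. Of 3465 genes called in set 1 and tested in set 2, 98.6% had the same sign there and 72.9% were also called. Of 3996 genes called in set 2 and tested in set 1, 98.0% had the same sign and 63.2% were also called. The median size of the genes called in set 1 was 0.86 in that set and 0.85 in set 2 (log2). For genes called in set 2 the medians were 0.95 in that set and 0.75 in set 1.

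Offspring of ozone-exposed dams, 6 males and 6 females with the same exposure after birth, showed how far this difference holds in other animals. The same fit on their 12 libraries called 540 of 12217 genes (4.42%), 276 higher in males and 264 higher in females. DESeq2 called 852 genes in these libraries, 574 of them called in the same direction with air-exposed dams, where edgeR had 399. Rat 88, a male, and rat 72, a female with the deepest library of the study, stood apart in their groups. The edgeR count was 462 without rat 88 and 555 without rat 72. Of 6248 genes called with air-exposed dams and tested with ozone-exposed dams, 72.9% had the same sign, but edgeR called 399 in the same direction (6.39% of the 6248) and 6 in the opposite one. In the reverse direction, of 527 genes called with ozone-exposed dams and tested with air-exposed dams, 93.5% had the same sign and 75.7% were also called in that direction. Of all genes tested with air-exposed dams, 25.6% were called higher in males and 25.9% higher in females. The median difference of the 527 genes was 0.89 where they were called and 0.87 in the offspring of air-exposed dams (log2).

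The difference itself was tested by the interaction of sex and maternal exposure in all 24 libraries. Neither rat numbers nor library index numbers overlap between any of the 4 groups. Effects that go with rat number, index number or litter therefore cannot be told apart from maternal exposure or from this interaction. It passed in 2998 of 12731 genes (23.5%; edgeR, adjusted p under 0.05). Among the 6299 genes called with air-exposed dams it passed in 2792, and in 2787 of these the sex difference was smaller or reversed with ozone-exposed dams. The interaction uses the same 12 libraries that chose the genes, which favours a smaller difference in the other group. With single libraries left out the interaction passed in 2387 genes (without rat 17) to 3811 genes (without rat 88, a male from an ozone-exposed dam).

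The decrease in the offspring of ozone-exposed dams is given here by size class. Genes between 2- and 4-fold had a median of 1.21 in the offspring of air-exposed dams. In the offspring of ozone-exposed dams it was 0.21, counted in the direction seen with air (log2), and 9.54% of them were called there in that direction. Between 4- and 8-fold the medians were 2.27 and 1.10, and 38.2% were called. At 8-fold or more they were 5.31 and 5.15, and 72.5% were called. The interaction passed in 64.1% of the genes between 2- and 4-fold, 40.8% of those between 4- and 8-fold and 28.2% of those at 8-fold or more. Over all tested genes the interaction passed in 23.5%, and 4.42% were called with ozone-exposed dams in either direction. Sizes were set on the air-exposed dams, so some decrease is built into each class, and a difference between the classes was not tested. The share passing the interaction also depends on the errors, which reached 3.27 (SE, log2) among the 4 named IDs, all of 8-fold or more.

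Within the largest class the values of male-higher and female-higher genes are given apart. Of the male-higher genes of 8-fold or more, 45 were tested with ozone-exposed dams as well. Of these, 39 were called in the same direction with ozone-exposed dams. Over all 45 the medians were 7.69 with air-exposed and 6.33 with ozone-exposed dams (log2). Of 24 female-higher genes, 11 were called in the same direction, 12 differed by less than 2-fold there, and the medians were -4.11 and -0.93. The 2 directions were already unlike in the libraries that chose the genes. Among offspring of air-exposed dams the sexes did not overlap in 46 of the 47 male-higher genes and in 17 of the 24 female-higher ones. Over all tested genes the shares without overlap were 13.2% higher in males and 14.5% higher in females. These libraries also set the sizes, and the male-higher genes were the larger (median 7.53 for the 47 and -4.11 for the 24, log2). The interaction passed in 7 of the 47 male-higher genes and in 13 of the 24 female-higher ones, against 23.5% of all tested genes. Whether the directions differ in this was not tested.

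**Figure D3:**
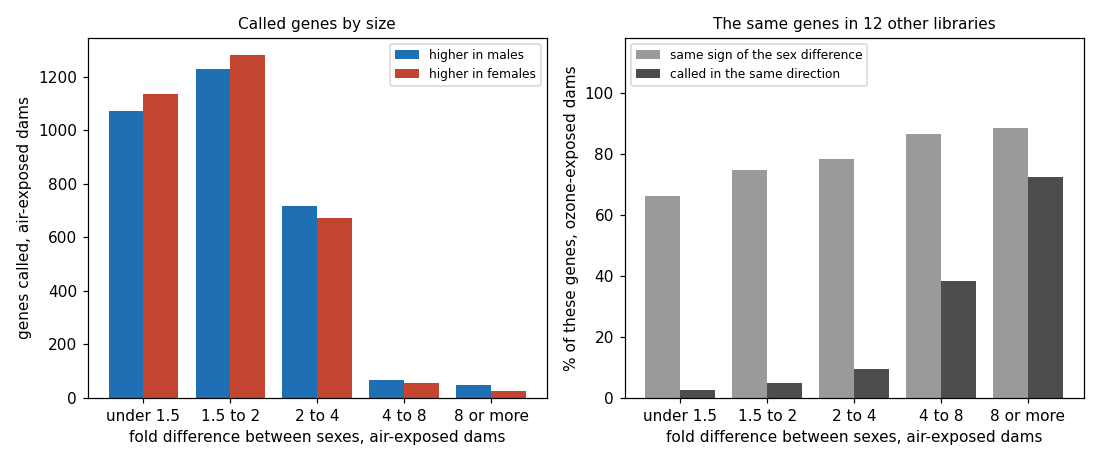
Left, number of genes called with air-exposed dams by fold difference and direction. Right, the percentage of those genes that had the same sign, or were called in the same direction, in the 12 libraries from ozone-exposed dams. The share called in the same direction was 2.58% under 1.5-fold and 72.5% at 8-fold or more. Of all genes tested in those libraries, 4.42% were called in either direction.

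**Figure D4:**
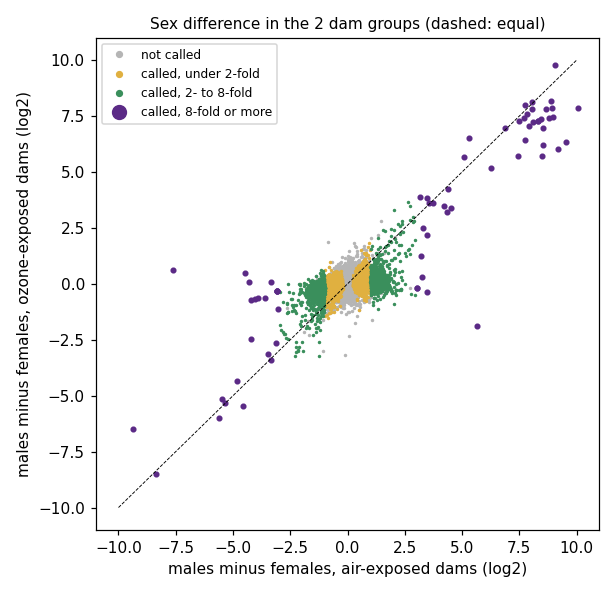
Fitted sex difference of each gene with air-exposed dams (horizontal, males minus females, log2) against that with ozone-exposed dams (vertical); colours give the call and size with air-exposed dams and the dashed line marks equal values. Genes of 8-fold or more on the male side lie near the dashed line, while most 2- to 8-fold genes lie near 0 on the vertical axis.

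All 4 named IDs also differed between the sexes with ozone-exposed dams. ENSRNOG00000019417 had 10.8 to 104 CPM in males from ozone-exposed dams and at most 0.439 CPM in females, with a difference of 7.85 ± 0.77 (SE, log2, adjusted p = 0.000105). ENSRNOG00000050117 had 87.9 to 628 CPM in those males and a mean of 1.47 ± 1.10 CPM (SD, n = 6) in females (7.44 ± 0.70, adjusted p = 7.48e-05). ENSRNOG00000004692 ranged from 1740 to 2954 CPM in females and from 12.0 to 78.6 CPM in males (-5.99 ± 0.43, adjusted p = 3.16e-06). For none of these 3 did the interaction pass (edgeR adjusted p = 0.666, 0.441 and 0.842 in that order, with log2 estimates of -2.20 ± 3.27, -1.31 ± 1.17 and -0.25 ± 0.76). These errors are wide, so the dam groups were not shown to be alike. The estimate for ENSRNOG00000019417 was -4.06 without rat 17, -1.02 without rat 41 and -0.62 by limma-voom, and it passed in none of these. For ENSRNOG00000051257 the interaction passed, toward a smaller sex difference with ozone-exposed dams (2.87 ± 0.73, edgeR adjusted p = 0.00761). Males from ozone-exposed dams had 2 to 18 counts (0.151 to 1.72 CPM) where males from air-exposed dams had 0 to 2, and females had 39.9 to 81.6 CPM. All 6 males from air-exposed dams, and rats 91 and 95 of the others, lay under the floor of 3 counts, so the size of 2.87 rests on values below the floor and is uncertain.

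The 2-fold sets had less separate levels in the offspring of ozone-exposed dams, in each sex. In males the 828 male-higher genes had a mean level of 3.91 ± 0.11 log2 CPM with air exposure of the dam and 3.28 ± 0.29 with ozone, and in females 2.31 ± 0.18 and 2.75 ± 0.19 in the same order (SD, n = 6 each). The 752 female-higher genes were at 3.94 ± 0.21 and 3.62 ± 0.15 in females and at 2.56 ± 0.13 and 3.10 ± 0.36 in males. Of the males from ozone-exposed dams, rat 88 had the highest male-higher level (3.75) and the lowest female-higher level (2.41), close to the males from air-exposed dams. In rat 95 the male-higher set stood at 2.98 and the female-higher set at 3.42, and 1 female from an ozone-exposed dam, rat 66, was at 2.98 and 3.41. The sexes therefore overlapped in the female-higher set there. Among the 12 animals from air-exposed dams, no female reached the lowest male (3.78) in the male-higher set, and no male reached the lowest female (3.68) in the female-higher set, where the highest male was at 2.77. The sets were chosen in those 12, so these values carry no test.

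**Figure D5:**
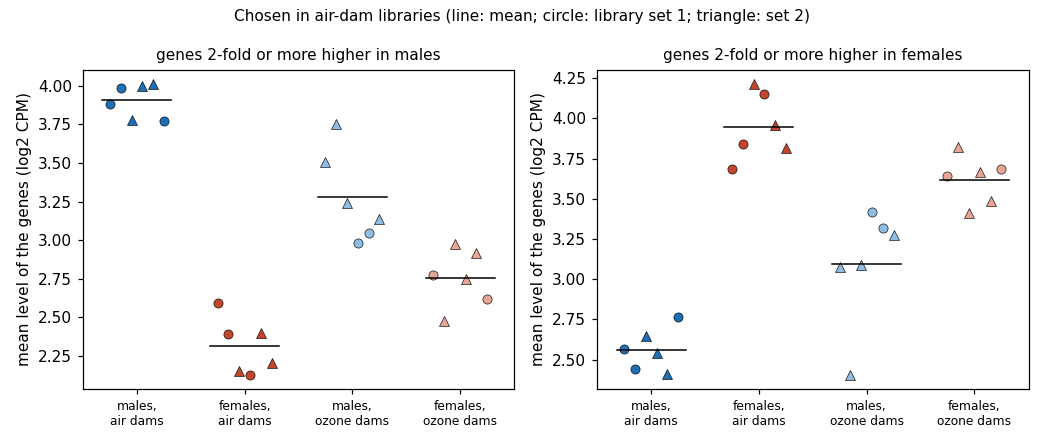
Mean level (log2 CPM) of the 828 genes that were 2-fold or more higher in males and the 752 that were 2-fold or more higher in females, chosen in the libraries of air-exposed dams, in each of the 24 libraries; lines are group means, circles are library set 1 and triangles set 2. Rat 88, the highest male from an ozone-exposed dam at left (3.75) and the lowest at right (2.41), sits beside the males of air-exposed dams.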

How the data were processed

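PolyA-selected liver RNA was made into libraries, per the labels' protocols. Partek, STAR 2.6.1d, DESeq2 and the build rn6 are named, without roles, in the submitters' processing notes. For annotation and strand the setting is not given in the sources used here. Each sex has 1 table of estimated counts by gene, as deposited, with the same 18056 IDs, per the file headers and values; they were joined by ID and rounded. The 23 columns that match no sample were not used.

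The main test was that of edgeR 4.0.16 under R 4.3.3 (TMM, robust quasi-likelihood, filterByExpr with a minimum count of 10 and total of 15, library set as covariate, adjusted p under 0.05). Each standard error is the absolute log2 difference over the root of the F statistic. CPM follow TMM scaling, and log2 CPM a prior count of 2. Replicate pairs within the 4 groups differed by 16.0 to 85.6 chi-square per degree of freedom, and no pair agreed within sampling noise. Tested on simulated data for the sex difference (12225 genes), the fit found 32 of 100 genes with a 1.5-fold change, 80 of 100 with a 2-fold change and 3 unchanged genes. For the interaction (12731 genes) it found 12, 56 and 3. Each simulation changed only those genes, a far smaller share than the 51.5% called for sex here. These figures may therefore not carry over to the data. The samples, lists and tests were chosen with earlier results of these data known. The IDs named are the 2 largest differences per direction among called genes with a mean count of at least 50 and no overlap between the sexes; 41 gene lists were set aside for want of gene names. Alternatives were DESeq2 1.42.0, limma-voom (limma 3.58.1), RLE and library-total scaling, filters, the covariate, each set alone, all 24 libraries, and each library left out.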

Additional observations from a re-analysis of the deposited data

Results flagged for a closer look

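ENSRNOG00000019417 was at 0 counts in 5 females from air-exposed dams and at 2 counts (0.159 CPM) in rat 17, which the gap test marked. Chance marks about 1 in 20 groups by that test. Here the other 5 females were tied at 0, so any count in rat 17 would be marked and that rate does not apply. The value also lies under the floor of 3 counts. For ENSRNOG00000051257 the sex difference itself differed between dam groups, by 2.87 on the log2 scale (ozone-exposed minus air-exposed dams, edgeR test of the interaction, adjusted p = 0.00761), a size that rests on males with fewer than 3 counts. The same test passed in 2998 of 12731 genes. Among the males from ozone-exposed dams, rat 88 stood apart by the gap test with 11488 IDs at 1 CPM or more (next 11914) and with a mean level of 2.41 log2 CPM over the female-higher genes (next 3.08). Among the females from ozone-exposed dams, rat 72 stood apart with 36232072 counts. What lies behind either difference was not tested, and litter cannot be told apart from maternal exposure with these labels.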

How the results depend on the processing

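The count of 6299 genes stayed within 1.5 times under DESeq2 (6429), limma-voom, both other scalings, both filters, no set term, all 24 libraries in 1 fit (6606) and identical IDs kept once. With any 1 library left out it ran from 5715 of 12339 tested genes to 6319 of 12314 (2787 to 3127 higher in males, 2928 to 3204 higher in females, 1426 to 1826 at 2-fold or more), and in 10 of these 12 fits fewer genes were called than not. The same held with no filter on low counts (6374 of 18006). It was lower in library set 1 alone (3500, with 1632 higher in males and 1868 in females) and set 2 alone (4042, with 1957 and 2085), which have fewer animals. It was also lower over the 8188 genes with whole counts in all 12 libraries (4100, with 2023 and 2077, and 933 at 2-fold or more), where fewer genes were tested. Library totals as scaling gave 2647 genes higher in males and 3549 higher in females. The interaction count ran from 2387 to 3811 with any 1 library left out. With ozone-exposed dams, DESeq2 called 852 genes against 540 by edgeR (the cause was not tested). The edgeR count there ran from 404 to 555 with any 1 library left out. Of 92 refits of the 4 named IDs, 91 kept direction and call. The interaction of ENSRNOG00000004692, not called, ran from -0.59 to 0.21 with any 1 library left out and changed sign without rat 43. Identical IDs once, whole counts only, the refits with ozone-exposed dams and the interaction without single libraries were added after the data were seen. Fold differences of genes in the lowest quartile by level rest on few counts and are the least certain.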
